A study of Mus musculus with 8 samples.

Results

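The protamines (Prm1, Prm2 and Prm3) and the transition proteins (Tnp1 and Tnp2) were followed as RNA fragments in small RNA libraries of mouse sperm. Rows of annotated exons that carried 1 of these 5 symbols were taken from the count table, which gave 9 of 149859 exon rows, and these were summed to 5 of 21477 genes. The libraries came from spermatozoa of C57BL/6J mice in 2 groups, 4 labelled EtOH-Cessation and 4 labelled Control-Cessation, and the series title places them 1 month after alcohol was stopped. The question is whether a difference in sperm RNA outlasts the exposure. All libraries are labelled Cessation, so whether a difference seen here was also there during exposure cannot be told. Sample labels give mature sperm as the material, whereas the series design text names caput epididymis. Dose, route, age and the number of animals behind a library are not stated, so each p-value reflects the spread among libraries, which may be technical.

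Protamines and transition proteins are the small basic proteins that compact the sperm nucleus. In elongating spermatids the transition proteins take over from most histones and are themselves replaced by protamines, whose arginine runs neutralise DNA and whose cysteines form disulfide bridges. Their messenger RNAs are made in round spermatids, stored in a repressed state and translated later, so that the RNA still found in transcriptionally silent sperm is a remnant of that stage. Per the labels, RNA was extracted with a reducing agent, which opens disulfide bridges.

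The coding sequences of Prm1 and Tnp1 show what sets each kind of protein apart. Codons for arginine are in capitals, and both reading frames run from start to stop codon (GENCODE M21 transcripts, GRCm38, minus strand).
Prm1: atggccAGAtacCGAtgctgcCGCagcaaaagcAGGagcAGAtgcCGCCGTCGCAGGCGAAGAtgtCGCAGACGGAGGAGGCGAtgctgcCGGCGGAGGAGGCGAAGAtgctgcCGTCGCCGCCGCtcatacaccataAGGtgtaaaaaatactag
Tnp1: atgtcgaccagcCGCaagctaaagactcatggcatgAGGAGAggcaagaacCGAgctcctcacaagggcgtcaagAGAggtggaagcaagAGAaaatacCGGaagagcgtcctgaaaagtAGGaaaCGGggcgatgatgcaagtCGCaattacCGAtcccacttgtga
Arginine took 28 of 51 codons of Prm1 (54.9%) in near-continuous runs, and cysteine another 9. Prm2, which is made as a longer precursor and trimmed, had 38 arginine codons of 107 (35.5%). In Tnp1 the basic residues were split between 11 arginine and 10 lysine codons of 55, with no cysteine codon, and in Tnp2 between 16 arginine and 11 lysine codons of 117. Prm3 lies in the protamine locus but is of the opposite charge, with 2 arginine and 27 glutamate codons of 101.

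Prm1 (chr16:10796326-10796886), Prm2 (chr16:10791380-10792105), Prm3 (chr16:10790505-10790914) and Tnp2 (chr16:10787936-10788660) lie side by side on chromosome 16, and Tnp1 (chr1:73015074-73015909) on chromosome 1, all on the minus strand. These positions are those of the GENCODE M21 annotation on GRCm38, matched by RefSeq accession, and the build behind the counts is not given in the sources used here. Prm3 has 1 exon and the others 2. Of the 5 genes, Tnp1 alone is overlapped by another annotated gene, the antisense 1700027A15Rik, whose reads cannot be told apart from those of Tnp1 if counting ignored strand.

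Summed counts per library were 3116421 to 6805989 in the EtOH libraries and 4210785 to 4768713 in the controls, with the lowest in EtOH replicate 2. The 5 genes together had 589, 240, 834 and 657 exon counts in EtOH replicates 1 to 4, and 533, 452, 748 and 617 in control replicates 1 to 4. EtOH replicate 2 also stood apart in its exon counts, which were 951569 against 587548 to 692254 in the other EtOH libraries and 307985 to 361038 in the controls. Markers of late spermatids other than the 5 genes were all detected (10 of 10), led by Smcp, and those of spermatogonia and spermatocytes summed to 3.57 to 6.41 CPM in the EtOH libraries and 3.29 to 5.69 in the controls. Levels are given as CPM on library sizes scaled with edgeR's TMM factors.

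Per kilobase of exon, Prm2 had the highest level in 8 of 8 libraries and Prm3 the lowest. The level of Prm2 was 85.8 ± 33.1 CPM per kb in the EtOH libraries and 123 ± 25.3 in the controls, and that of Prm3 2.91 ± 2.39 and 2.48 ± 2.21 (SD, n = 4 each). Prm1 had 37.9 ± 16.5 CPM per kb in the EtOH libraries and 75.2 ± 12.2 in the controls, Tnp2 41.1 ± 13.5 and 61.4 ± 5.37, and Tnp1 14.8 ± 6.66 and 26.8 ± 13.2 (SD, n = 4 each). Prm1 stood above Tnp2 in 4 of 4 controls and in EtOH replicate 3, and below it in EtOH replicates 1, 2 and 4, so these neighbours differed by less than their spread in the EtOH libraries.

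Of the 4 genes with enough counts to test, all had lower values in the EtOH libraries and none passed the threshold of an adjusted p below 0.05. By fitted value Prm1 lay lowest against the controls, Tnp1 next, and Tnp2 and Prm2 closest to them. Standard errors were 0.40 to 0.46, and without control replicate 3 the order of Tnp1 (-0.51) and Tnp2 (-0.56) was reversed. Most other tested genes had higher fitted values in the EtOH libraries. In bulk RNA of this kind, fewer spermatozoa in a sample and less of an RNA per spermatozoon cannot be told apart.

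Prm1, the most arginine-rich of the set, had 15.2, 8.30, 26.1 and 21.4 CPM in EtOH replicates 1 to 4 and 33.2, 28.3, 41.4 and 38.1 in control replicates 1 to 4. The highest EtOH library lay just below the lowest control. The log2 fold change was -0.99 (SE 0.43), with an unadjusted p of 0.0371 and an adjusted p of 0.138 (edgeR quasi-likelihood test, Benjamini-Hochberg over 12058 features). DESeq2 and limma voom did call it, with adjusted p of 0.0386 and 0.0428 and log2 fold changes of -1.06 and -0.98. These tools also called more of the 6424 tested genes. DESeq2 called 79 lower and 1713 higher, limma voom 82 and 1214, and edgeR 18 and 839. Leaving out any 1 library gave log2 fold changes of Prm1 between -1.27 and -0.91, with edgeR adjusted p of 0.0505 to 0.273.

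Prm2, the more abundant protamine, had 48.1, 28.7, 78.1 and 58.1 CPM in EtOH replicates 1 to 4 and 67.5, 58.9, 93.4 and 84.5 in control replicates 1 to 4. The groups overlapped, with EtOH replicate 3 above control replicates 1 and 2. Its log2 fold change was -0.51 (SE 0.43, edgeR adjusted p = 0.447), and -0.80 without EtOH replicate 3 (adjusted p = 0.196).

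Prm3 was counted 10, 2, 14 and 2 times in EtOH replicates 1 to 4 and 0, 3, 4 and 8 times in control replicates 1 to 4, and was not tested because its counts were below the filter. A count of 0 in control replicate 1 allows up to 0.81 CPM (3 counts), and the groups overlapped. On the scaling used for the other genes it averaged 1.19 ± 0.98 CPM in the EtOH libraries and 1.02 ± 0.91 in the controls (SD). Without the filter its log2 fold change was 0.605 (SE 0.65, edgeR adjusted p = 0.435). That fit moved the other genes upward too, to -0.61 for Prm1, -0.15 for Prm2, -0.49 for Tnp1 and -0.21 for Tnp2. Its values are therefore not on the scale of the filtered fit.

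Tnp2, which shares the chromosome 16 cluster, had 20.9, 13, 28.1 and 29.3 CPM in EtOH replicates 1 to 4 and 34.3, 31.1, 38.1 and 32.7 in control replicates 1 to 4. As for Prm1, no EtOH library reached the lowest control on these scaled library sizes. On unscaled library totals Prm1 stayed separate, but Tnp2 in EtOH replicate 4 lay above control replicates 2 and 4. The log2 fold change was -0.58 (SE 0.40, edgeR adjusted p = 0.351).

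Tnp1 had 4.76, 3.36, 9.70 and 8.03 CPM in EtOH replicates 1 to 4 and 8.91, 6.39, 19.7 and 11.8 in control replicates 1 to 4. The groups overlapped, and control replicate 3 carried 76 of the 175 control counts. The log2 fold change was -0.85 (SE 0.46, edgeR adjusted p = 0.226), and -0.51 without control replicate 3.

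**Figure D1:**
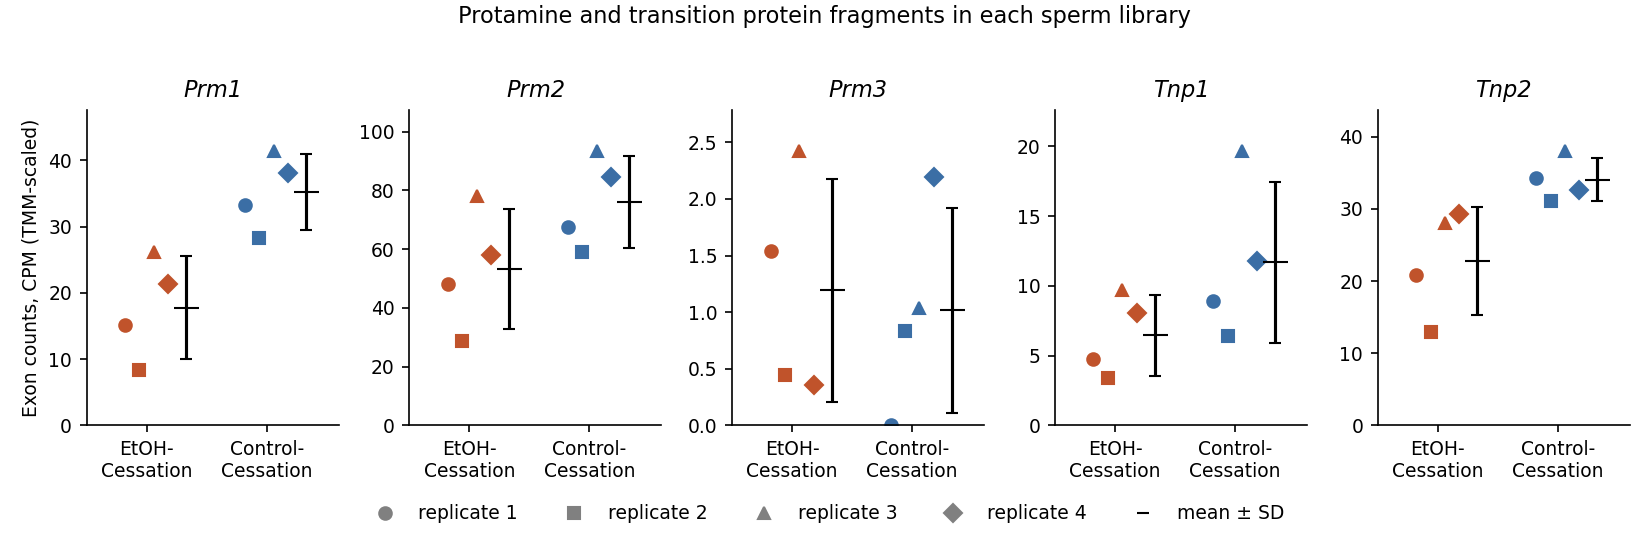
Exon counts of each gene in CPM (vertical axis, scaled library sizes, a separate scale for each gene) in the 4 EtOH-Cessation and 4 Control-Cessation libraries, with marker shapes for replicates and bars for the mean and SD. On these scaled sizes Prm1 and Tnp2 show no overlap between the groups, with Prm1 at 8.30 to 26.1 CPM in the EtOH libraries and 28.3 to 41.4 in the controls. On unscaled library totals the Tnp2 groups overlapped.

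Against the other genes, 0 of these 4 were called where 13.3% of 6424 tested genes were (13.1% higher and 0.28% lower), and 8.8% of all 12058 features. The count over all features, 1061, was 13, 12, 11 and 22 without control replicates 1 to 4, and 583, 451, 3025 and 136 without EtOH replicates 1 to 4. On scaled library sizes the groups did not overlap for 2 genes, Prm1 and Tnp2. Every EtOH library lay below every control in 2.52% of tested genes and in 6.55% of all 12058 features. At an unadjusted p below 0.05, 1 of the 4 was lower (Prm1), as were 1.96% of tested genes. The median log2 fold change of the 4 genes was -0.71 and that of all tested genes 0.79, with quartiles of 0.14 and 1.37. The median of all tested genes was 0.34 without EtOH replicate 2 and 0.24 with exon-row totals as library size. A value below 0 was fitted for 20.9% of tested genes, and 1.54% had a value at or below that of Prm1, 2.74% at or below Tnp1, 7.05% at or below Tnp2 and 8.36% at or below Prm2.

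As a share of all exon counts, the 5 genes made up 0.0851%, 0.0252%, 0.135% and 0.112% in EtOH replicates 1 to 4 and 0.173%, 0.144%, 0.223% and 0.171% in control replicates 1 to 4. No EtOH library reached the lowest control. The group means of the log2 share differed by -1.22, and by -0.69 without EtOH replicate 2. As a share of all counts the groups came closer, with 0.0101% ± 0.00216 in the EtOH libraries and 0.0133% ± 0.00279 in the controls (SD, n = 4 each). Between the groups and among the EtOH libraries, the markers of epididymal epithelium moved in the opposite direction to these shares. Among the controls they did not. Their summed level was 2991, 13481, 997 and 1510 CPM in EtOH replicates 1 to 4 and 481, 581, 684 and 752 in control replicates 1 to 4. Of 24 listed genes 22 had rows, none at 0 over the 8 libraries. Of 8 tested, 5 were called higher (Cd52, Adam7, Crisp1, Spink8 and Wfdc8), where 13.1% of tested genes were. Over all tested genes 0 were called higher without control replicate 1 or 3 and 1 without control replicate 2 or 4, and 0 with library size alone or with EtOH replicates 3 and 4 alone. These marker calls were therefore lost in those fits that called 0. Crisp1, a secreted protein that coats maturing sperm, led this list with 3087 ± 3694 CPM in the EtOH libraries and 445 ± 102 in the controls (SD, n = 4 each; edgeR adjusted p = 0.0403). The part of these fragments in the lower share of protamine and transition protein RNA was not tested.

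The log2 fold changes of the 4 genes depended on what the libraries were scaled to. With library size alone, where the median of all features was 0.32 (0.03 in the fit above), they were -0.76 for Prm1, -0.27 for Prm2, -0.62 for Tnp1 and -0.32 for Tnp2. When the summed counts of other late spermatid transcripts set the scale, a choice made after the values were seen that put the median of all features at 0.68, Prm1 stood at -0.43, Tnp1 at -0.27, Prm2 at 0.07 and Tnp2 at 0.03 (edgeR adjusted p = 0.406, 0.671, 0.883 and 0.956). With the logarithm of the total count as a covariate all 4 were called lower, with edgeR adjusted p between 0.004 and 0.0476. That fit called 3374 of 6424 tested genes higher and 374 lower. The EtOH libraries carry identifiers of either of 2 forms, and all controls carry another, CM, that no EtOH library has. A batch behind these forms, if any, could not be told apart from the treatment. With the pair titled M21 alone (EtOH replicates 1 and 2), Prm1 was at -1.73 and called (edgeR adjusted p = 0.0323). Tnp1 was also called, at -1.68 (adjusted p = 0.0489). That fit called 1989 of 7670 tested genes higher and 100 lower. With the pair titled EM alone Prm1 and Tnp1 were at -0.61 and -0.45 (adjusted p = 0.435 and 0.686). Neither was called, and 0 of 6888 tested genes were. What the identifier forms stand for is not given in the labels.

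**Figure D2:**
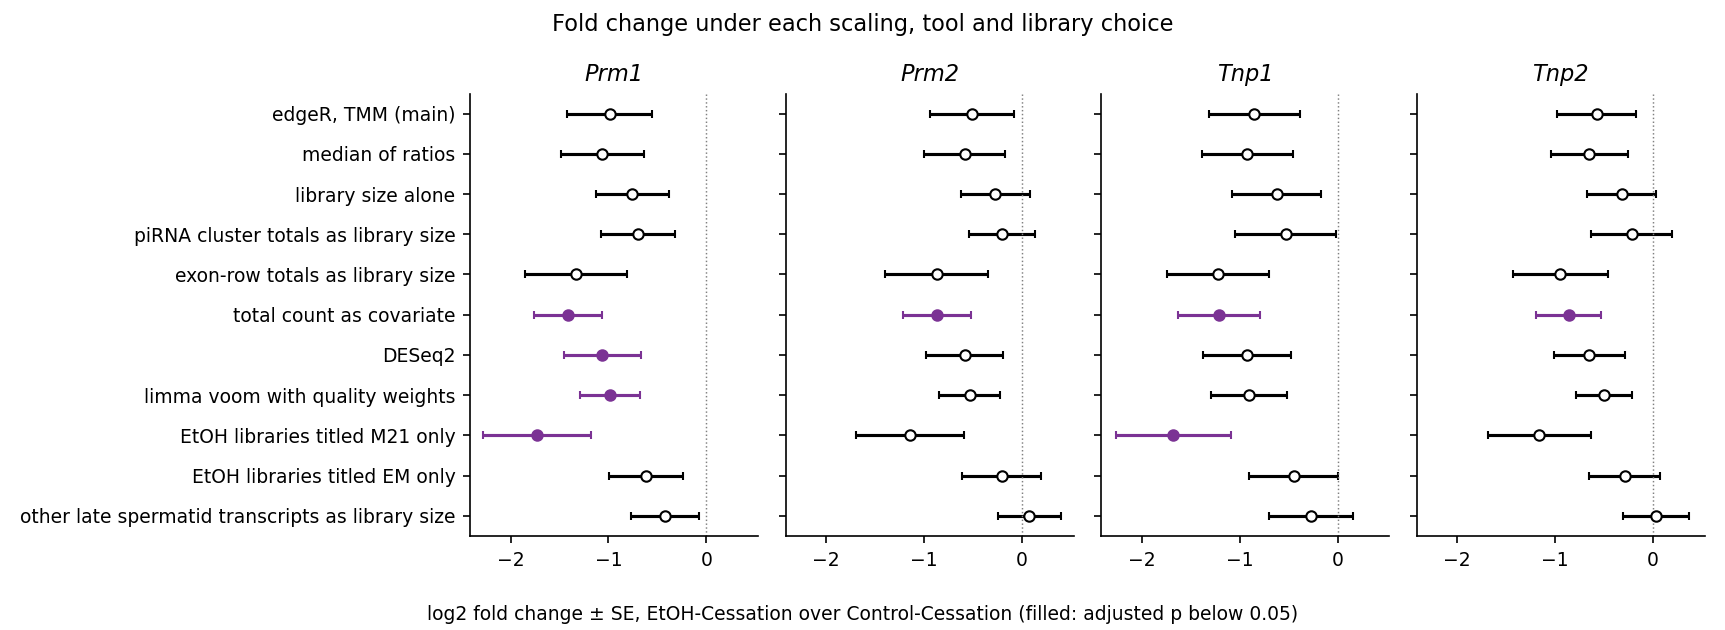
Log2 fold change of each tested gene with its standard error (horizontal axis, EtOH-Cessation over Control-Cessation) under the edgeR fit reported here and 10 other choices of scaling, tool or EtOH libraries (rows). Filled points passed an adjusted p of 0.05. Prm1 lies between -1.73 and -0.43 in every row, and Prm2 and Tnp2 lie at 0.07 and 0.03 when scaled to other late spermatid transcripts.

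The balance of the 2 main protamines differed between the groups without any scaling between libraries. Prm2 had 3.16, 3.46, 2.99 and 2.72 counts per Prm1 count in EtOH replicates 1 to 4, and 2.03, 2.08, 2.26 and 2.22 in control replicates 1 to 4. Every EtOH library lay above every control. On the log2 scale, with 0.5 added to each count, the ratio averaged 1.61 ± 0.14 in the EtOH libraries and 1.10 ± 0.07 in the controls (SD, n = 4 each), a difference of 0.51. The two-sided exact permutation p was 0.0286, the smallest that 4 against 4 libraries allow, and 0.143 after adjustment over 5 ratios and shares. The difference did not pass the correction, but a measure that is alone at this smallest p cannot pass it, even with complete separation. The adjusted value therefore cannot decide whether the groups differ. Leaving out any 1 library gave differences between 0.46 and 0.57. The counting interval of single libraries was wide, from 2.38 to 5.13 in EtOH replicate 2, where Prm1 had 37 counts and Prm2 128. Summed over a group, the ratio was 2.99 (exact 95% interval 2.67 to 3.36, counting error only) in the EtOH libraries and 2.16 (1.94 to 2.40) in the controls.

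For the transition proteins no such separation was seen. Tnp2 had 4.39, 3.87, 2.89 and 3.64 counts per Tnp1 count in EtOH replicates 1 to 4 and 3.85, 4.87, 1.93 and 2.77 in control replicates 1 to 4. The controls spanned the whole EtOH range. The log2 difference was 0.20 (exact permutation p = 0.6, adjusted p = 0.8286). The 2 transition proteins together had 0.413 ± 0.0491 counts per protamine count in the EtOH libraries and 0.409 ± 0.0353 in the controls (SD, n = 4 each), a difference smaller than the spread between libraries.

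**Figure D3:**
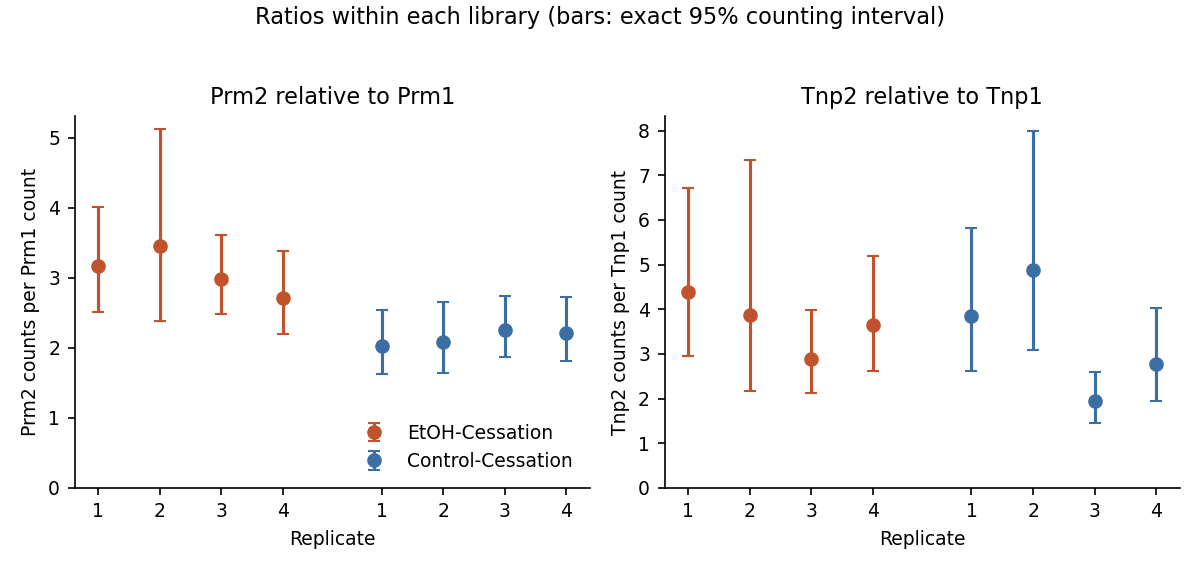
Prm2 counts per Prm1 count (left) and Tnp2 counts per Tnp1 count (right) in each library, with exact 95% counting intervals. The EtOH-Cessation libraries sit between 2.72 and 3.46 for the protamines, all above the controls at 2.03 to 2.26, while for the transition proteins the groups overlap.

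Fragments were spread unevenly along the transcripts. Exon numbers in the table run along the chromosome, since counts followed exon length better in that order for 1454 of 1609 minus-strand transcripts (median rank correlation 0.784, against 0.133 in reverse), so that on these genes the row numbered 0 is the 3′ exon. The 3′ exon of Prm1 makes up 44.3% of its exon length and held 6.5% to 29.7% of its exon counts over the 8 libraries, below its length share in every library. For Tnp2 the 3′ exon held 23.2% to 41.9% of counts for 28.5% of length, and for Tnp1 33.9% to 62.2% for 57.7%, with as few as 15 exon counts in a library. The exact binomial interval of a single library's share spanned up to 31.1 percentage points for Prm1, 17.9 for Prm2, 51.4 for Tnp1 and 25.01 for Tnp2.

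Within Prm2, the 3′ exon held 38.7%, 46.9%, 33.04% and 31.6% of exon counts in EtOH replicates 1 to 4, and 28.8%, 26.4%, 34.1% and 30.5% in control replicates 1 to 4. The groups overlapped through control replicate 3. The means were 37.5% ± 6.93 in the EtOH libraries and 29.9% ± 3.22 in the controls (SD, n = 4 each; exact permutation p = 0.0857, adjusted p = 0.214). The difference of 7.59 percentage points was 4.48 without EtOH replicate 2. For Prm1 the means were 22.8% ± 5.96 in the EtOH libraries and 20.2% ± 9.73 in the controls, and for Tnp2 32.3% ± 6.66 and 31.3% ± 7.39 (SD, n = 4 each; exact permutation p = 0.714 and 0.8286).

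By single exon row, 8 of the 9 rows were tested, all were fitted below 0, and 0 were called, where 0.0217% of 4600 exon rows were (0.186% of all 10234 rows). At an unadjusted p below 0.05, 1 of the 8 was lower, the 5′ exon of Prm1, as were 3.35% of tested exon rows, and 27.6% of those were fitted below 0. The 5′ exon of Prm1 had 14.1 ± 4.97 CPM in the EtOH libraries and 28.3 ± 4.53 in the controls (SD, n = 4 each), with a log2 fold change of -0.99 (SE 0.39) and an edgeR adjusted p of 0.125, and the groups did not overlap. On scaled library sizes, though not on unscaled library totals, the 5′ exon of Prm2 likewise did not overlap. It had 34.8 ± 11.7 CPM in the EtOH libraries and 53.5 ± 9.23 in the controls (SD, n = 4 each), with a log2 fold change of -0.62 (edgeR adjusted p = 0.317). The 3′ exon of Prm2 did overlap, at 19.9 ± 1.93 CPM in the EtOH libraries and 23.4 ± 7.82 in the controls (SD, n = 4 each; log2 fold change -0.24, adjusted p = 0.752). The other 5 tested rows had log2 fold changes between -1.01 and -0.52 with adjusted p of 0.214 to 0.430, and their groups overlapped. Single libraries moved most of these values. Without EtOH replicate 1 the 5′ exon of Tnp2 was at -0.25, the 5′ exon of Tnp1 at -0.30, the 3′ exon of Prm1 at -0.55 and the 5′ exon of Prm2 at -0.37. Without control replicate 3 the 5′ and 3′ exons of Tnp1 were at -0.27 and -0.48, and the 3′ exon of Tnp2 was at -0.35 without control replicate 1 or 3. Without EtOH replicate 3 the 5′ exon of Tnp1 was at -1.05. Rows in which every EtOH library lay below every control made up 4.26% of tested exon rows.

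The introns of Prm1 and Tnp2 carried many fragments, while those of Prm2 and Tnp1 carried few. Over the 8 libraries the 92-base intron of Prm1 had 871 counts and its 469 bases of exon 931, so that the intron held 4.77 times as many counts per base. The ratio was 1.12 for Tnp2, 0.0884 for Tnp1 and 0.0705 for Prm2. Among 6074 transcripts matched to the annotation with at least 50 exon counts, the median ratio was 0.0496, 0.922% had a ratio of 1 or more, 0.23% had one at or above that of Prm1 and 0.856% at or above that of Tnp2. By counts the Prm1 intron ranked 172 of 132709 intron rows and the Tnp2 intron 476. The source of the intronic fragments was not tested, and whether counting used strand is not given in the sources used here.

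**Figure D4:**
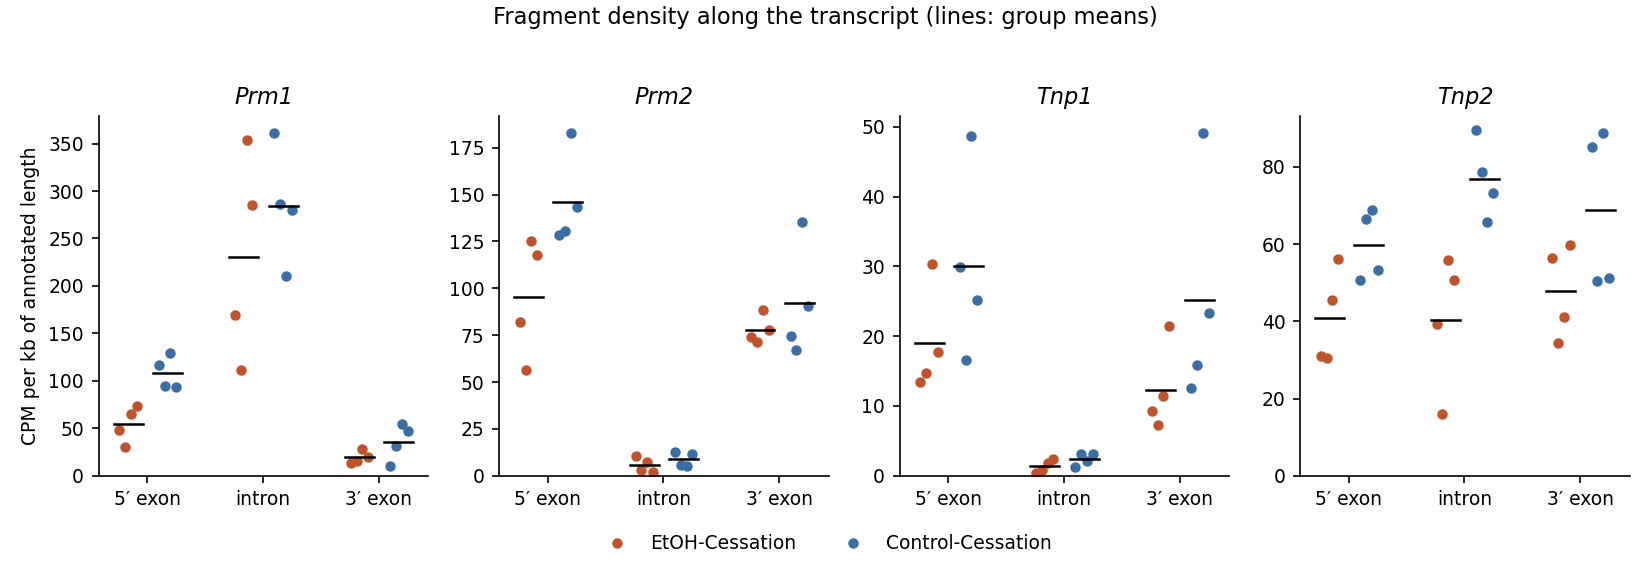
CPM per kb of annotated length (vertical axis, a separate scale for each gene) in the 5′ exon, the intron and the 3′ exon of the 4 genes with 2 exons, for each library, with lines at group means. The Prm1 intron averaged 230 CPM per kb in the EtOH libraries and 285 in the controls, above both of its exons, and the Prm2 intron 5.58 and 8.86, below both.

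Between the groups, the Prm1 intron had 100, 34, 215 and 136 counts in EtOH replicates 1 to 4 and 126, 86, 69 and 105 in control replicates 1 to 4. In CPM this was 21.2 ± 10.1 in the EtOH libraries and 26.2 ± 5.66 in the controls (SD, n = 4 each; log2 fold change -0.30, edgeR adjusted p = 0.720), with the groups overlapping. Its counts per Prm1 exon count were 1.01, 0.919, 1.42 and 1.13 in EtOH replicates 1 to 4 and 1.02, 0.843, 0.431 and 0.755 in control replicates 1 to 4, so that 2 EtOH libraries lay above every control. The Tnp2 intron had 43, 9, 63 and 45 counts in EtOH replicates 1 to 4 and 58, 44, 40 and 51 in control replicates 1 to 4. In CPM it stood at 6.91 ± 3.03 in the EtOH libraries and 13.1 ± 1.71 in the controls (SD, n = 4 each), with a log2 fold change of -0.91 (SE 0.42) and an edgeR adjusted p of 0.186. The groups did not overlap, as was so for 13.2% of tested intron rows. On unscaled library totals EtOH replicate 3 lay just above control replicate 3. Neither intron was called, where 0.232% of 3012 intron rows were. The introns of Prm2 and Tnp1 had 1 to 7 counts per library and were not tested.

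Across the 8 libraries the 4 tested genes varied together in CPM on unscaled library totals, with Pearson correlations of log2(CPM + 1) from 0.78 (Prm2 and Tnp2) to 0.95 (Prm2 and Tnp1). These are descriptions over 8 points that share libraries and depth. The genes whose exon sums were most like the sum of the 5, among 1853 genes with a mean of at least 10 CPM, were Akap12 (Pearson r 0.909, Spearman rho 0.833), Gapdhs (0.902 and 0.762), Hoxb3 (0.900 and 0.857), Ccdc136 (0.888 and 0.905) and Lrrc8b (0.864 and 0.833). Of the 13 other late spermatid genes in that ranking, 10 were among the first 100, and their median r was 0.66, against -0.70 over all genes ranked.

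Other late spermatid transcripts stood close to the protamines and transition proteins. Of the 58 listed, 30 were tested and 0 passed in either direction, where 0.28% of tested genes were called lower and 13.1% higher. Unadjusted edgeR p-values below 0.05 were found for 2 of the 30, both lower. Among all tested genes, 1.96% had such a p with a lower value and 41.3% with a higher one. The median log2 fold change of the 30 was -0.49. Of them 27 were fitted below 0 and 3 above, where 20.9% of tested genes were fitted below 0. The median was -0.79 without EtOH replicate 3, -0.10 with no filter and -0.21 with piRNA cluster totals as library size. Smcp, a protein of the sperm mitochondrial capsule, had 105, 61.4, 121 and 111 CPM in EtOH replicates 1 to 4 and 208, 195, 176 and 185 in control replicates 1 to 4 (log2 fold change -0.94, edgeR adjusted p = 0.137). Tssk1, a testis serine kinase, and Spem1, which serves in shaping the sperm head and neck, had log2 fold changes of -1.05 and -0.78 (adjusted p = 0.113 and 0.223). Summed over the list, the EtOH libraries had 278 to 669 CPM and the controls 656 to 765. Counted per 100 late spermatid counts, the 5 genes had 19.4, 19.4, 21.6 and 22.4 in EtOH replicates 1 to 4 and 19.0, 19.1, 25.6 and 22.1 in control replicates 1 to 4, and the controls spanned the EtOH range.

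Genes of the histone-to-protamine exchange had values on both sides of 0. Of 27 listed histone variants and remodelling factors, 16 were tested, 1 rose and 0 fell, where 13.1% of tested genes rose. Their median log2 fold change was 0.49, against 0.79 over all tested genes, and it was -0.07 without EtOH replicate 2 and -0.04 with exon-row totals as library size. The gene that rose was H3f3b, which encodes histone H3.3 in many cell types, at 27.0, 69.3, 13.3 and 20.3 CPM in EtOH replicates 1 to 4 and 5.94, 9.73, 9.58 and 9.61 in control replicates 1 to 4 (log2 fold change 1.89, SE 0.52, edgeR adjusted p = 0.0410). EtOH replicate 2, with the highest epididymal marker sum, was also the highest here. No gene of the list was called without EtOH replicate 1, 2 or 4, or without any 1 control, and 3 were without EtOH replicate 3. H3f3a, the second H3.3 gene, and Nap1l4, a histone chaperone, had log2 fold changes of 1.40 and 1.41 (adjusted p = 0.0699 and 0.0752). Of 28 regulators of protamine and transition protein transcription and translation, 17 were tested and 0 passed, with a median of -0.02. Pabpc1, a poly(A)-binding protein, Sox30, a transcription factor of spermatids, and Fxr1, an RNA-binding protein, had log2 fold changes of 1.05, -0.72 and 0.64 (adjusted p = 0.158, 0.267 and 0.334). By edgeR the unadjusted p was below 0.05 for 4 of the remodelling list, all higher, and for 1 regulator, also higher, as it was for 41.3% of tested genes.

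**Figure D5:**
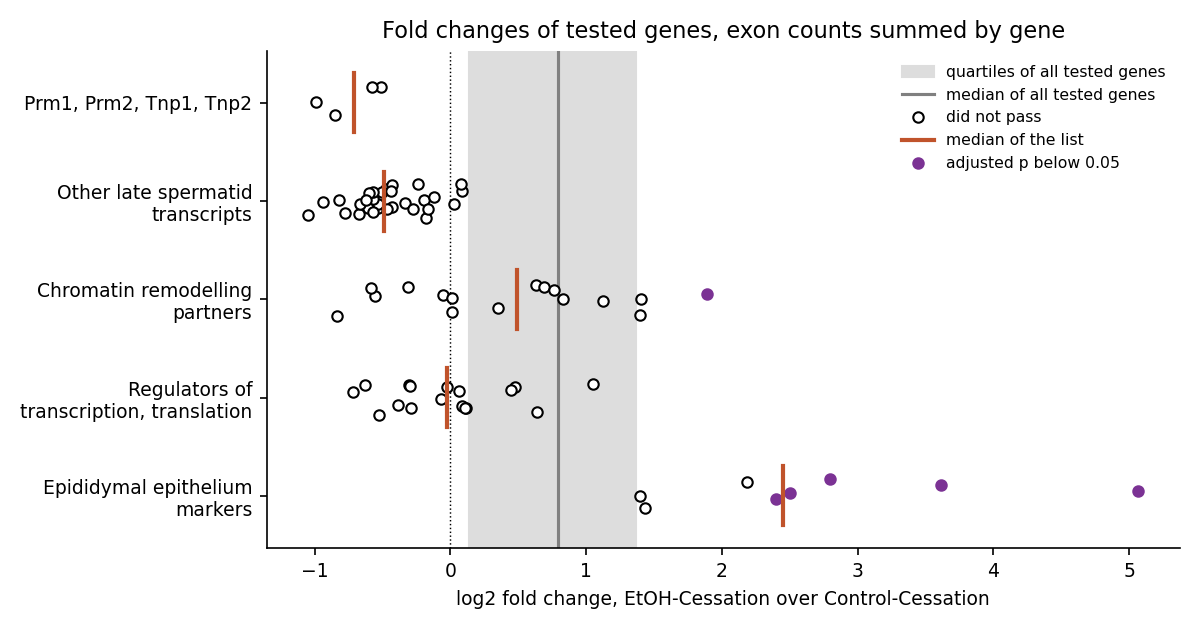
Log2 fold change (horizontal axis, EtOH-Cessation over Control-Cessation) of each tested gene in the set of 4 and in 4 gene lists (rows), with list medians, and the quartiles and median of all 6424 tested genes as a band and a line. The 4 protamine and transition protein genes and 27 of 30 other late spermatid genes lie below 0, while the median of all tested genes is 0.79.

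Markers of other cells a sperm preparation could hold summed to lower levels than those of the epididymis in every library. Leukocyte markers summed to 5.19 to 21.8 CPM in the EtOH libraries and 4.86 to 11.9 in the controls, led by Itgam, with 0 of 2 tested called. Red blood cell markers summed to 1.91 to 18.01 CPM in the EtOH libraries and 18.3 to 38.1 in the controls, with 2 of 4 tested called lower (Hba-a1 and Hba-a2, alpha globin genes), where 0.28% of tested genes were. Hba-a1 and Hba-a2 had nearly the same CPM in every library, with control means of 7.06 and 7.19. Whether the same reads were counted for both is not known, so they may not be separate observations. No tested gene was called lower without control replicate 1, 2 or 3, with median of ratios or with library size alone. Smooth muscle markers summed to 15.97 to 43.3 CPM in the EtOH libraries and 20.97 to 119 in the controls, led by Myh11, with 0 of 5 called. The sum of 119 CPM was that of control replicate 2, where Prm2 had 58.9. Markers of Sertoli and Leydig cells reached 73.2 to 1868 CPM in the EtOH libraries and 32.1 to 287 in the controls, nearly all from Clu, a gene that the epididymal epithelium also expresses.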

How the data were processed

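The authors deposited raw read counts for each annotated feature. Per the submitters' processing notes adapters were trimmed with cutadapt, and per the labels read 1 alone entered the analysis. Aligner, build, strandedness and the handling of multiply matching reads were not given in the sources used here. Column names gave the sample titles, the treatment label gave the groups, and replicates were numbered by accession, without pairing. Libraries of a group differed beyond sampling noise (chi-square per degree of freedom at least 13.3).

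Exon rows were summed by gene with all other rows kept. The fit used edgeR 4.0.16 under R 4.3.3: its default expression filter (at least 10 counts in enough libraries and 15 in all), TMM scaling and quasi-likelihood testing. Adjustment followed Benjamini-Hochberg, over 12058 features for gene sums and 10234 for rows as deposited. Log2 fold changes are EtOH over control. Ratios and exon shares were compared by a two-sided exact permutation test, for genes with at least 20 exon counts in every library, with adjustment over 5 tests. Intervals and floors cover counting error only. Lengths came from GENCODE M21. Alternatives included DESeq2 1.42.0, limma 3.58.1, other scalings, filters and libraries left out. Steps were tested on simulated data.

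The genes and lists were chosen with earlier results of these data known. Named genes were the 5 genes, the 3 tested genes with the lowest p in each list, the highest marker, called markers and the 5 most similar genes. The intron comparisons and the scaling to late spermatid transcripts were chosen after the values were seen.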

Additional observations from a re-analysis of the deposited data

Results flagged for a closer look

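In groups of 4 libraries, 6 values lay far from the other 3 of their group. Control replicate 4 had 0.356 transition protein counts per protamine count, with 0.425 to 0.429 in the other controls. EtOH replicate 2 had the highest sum of chromatin remodelling partners, 328 CPM with 195 to 216 in the other EtOH libraries. It was also highest in epididymal epithelium markers, at 13481 CPM with 997 to 2991 in the others, and in Sertoli and Leydig cell markers, at 1868 CPM with 73.2 to 355 in the others. Control replicate 3 was high in the last of these lists, at 287 CPM with 32.1 to 54.7 in the other controls. Control replicate 2 had the lowest sum of other late spermatid transcripts, 656 CPM with 756 to 765 in the other controls. Of 90 groups looked at, chance alone flags about 1 in 20.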

How the results depend on the processing

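No paired analysis was possible because the labels number no replicates. Over 20 alternatives Prm1 and Tnp1 kept a log2 fold change below 0, and Prm2 and Tnp2 did in 19. The number of the 4 genes called was 0 here and 0 without any 1 library. It was 1 with DESeq2 and with limma voom, 2 with the M21 EtOH libraries alone and 4 with total count as covariate. Over all tested genes, DESeq2 called 1792, limma voom 1296, the M21 fit 2089 and the covariate fit 3748, against 857 here. Scaling to late spermatid transcripts called 2279. Exon rows called were 1 with DESeq2, the covariate and the M21 libraries, each the 5′ exon of Prm1. Over all tested exon rows those fits called 1315, 2167 and 2145, against 1 here. Intron rows called were 1 with the covariate. Called remodelling partners, 1 here, were 0 with median of ratios, library size alone, exon-row totals, piRNA cluster totals, a mean count of at least 10 and the EM libraries, 2 with limma voom, 3 with DESeq2 and the M21 libraries, 4 scaled to late spermatid transcripts, 10 with the covariate, and 0 to 3 without 1 library. Called regulators were 3 with the covariate and 1 scaled to late spermatid transcripts. Called late spermatid transcripts were 1 with DESeq2 and the M21 libraries and 10 with the covariate.

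Scaled to late spermatid transcripts, signs turned for Prm2 (0.073), Tnp2 (0.029), its 5′ and 3′ exons (0.0088 and 0.071), the Prm2 3′ exon (0.37) and the Prm1 intron (0.19). The Prm2 3′ exon was also at 0.099 with piRNA cluster totals and ranged from -0.43 to 0.024 without 1 library, and the Prm1 intron at 0.29 with the EM libraries and from -0.66 to 0.00016 without 1 library. Without 1 library, differences ranged from -0.029 to 0.41 for the log2 Tnp2 to Tnp1 ratio, and in percentage points from -1.98 to 5.45 for the Prm1 3′ exon share and -2.13 to 4.02 for that of Tnp2. With medians these shares differed by -0.79 and -0.42 points. The 5 genes' log2 share difference, -1.22 of exon counts, was -0.40 of all counts, -0.045 of late spermatid counts and -1.50 to -0.69 without 1 library. The cause was not tested for any of these. Features called, 1061, ranged from 1 to 5669, and 19 by row from 1 to 3208, and the gene-sum count moved by over 1.5 times without any 1 library. Counts per tested gene and library were 15 to 451, and standard errors in the main fit were 0.40 to 0.46. The log2 fold change of -0.99 for Prm1 did not pass there, so smaller differences in these genes were not detectable.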
